A study of Mus musculus with 14 samples.

Results

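The circadian clock genes described here were Per1, Per2, Per3, Cry1, Cry2, Arntl, Clock, Nr1d1, Nr1d2 and Dbp, which are 10 of the 42687 genes counted. They were chosen by name as the core of the clock, to ask whether KO and control libraries stood at the same point of the daily cycle. RNAs of the retinal pigment epithelium (RPE), the pigmented cell layer behind the photoreceptors, were sequenced from 14 male C57BL/6J mice at 3 months of age, with the RPE of both eyes of a mouse in 1 library. KO mice (Best1-Cre+/-; Clic4f/f) lack Clic4, a chloride intracellular channel family gene, in cells that express Cre from the Best1 promoter, which becomes active in the RPE after birth. WT mice carried neither allele, Ctrl mice (Clic4f/f) carried the floxed alleles without Cre, and CreCtrl mice (Best1-Cre+/-) carried Cre without the floxed alleles. The libraries form 3 sets that share no mouse, namely 3 WT with 3 KO, 2 Ctrl with 2 KO, and 2 CreCtrl with 2 KO. Set and control genotype cannot be told apart. The hour of collection is not given in the sources used here, and the libraries were made from RPE cells taken off their support after enzyme digestion.

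The mammalian clock is a loop of transcription and repression that runs in nearly every cell. ARNTL (also called BMAL1) and CLOCK bind E-box sequences as a pair and activate Per, Cry, Nr1d1, Nr1d2 and Dbp, and the PER and CRY proteins then repress that pair. The NR1D1 and NR1D2 proteins (REV-ERBs) repress Arntl through ROR elements, so Arntl transcripts peak at nearly the opposite time of day from those of Dbp and Nr1d1. DBP binds D-box sequences. In the eye, rods shed the tips of their outer segments in a daily rhythm, and the RPE takes them up. Per1 is also under another kind of control, since it is induced quickly by cAMP and calcium signals in the manner of an immediate-early gene.

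The letters of these elements were searched for in the 250 bases before each RefSeq start site (GRCm38.p6) of 9 of the 10 genes, on both strands, and the stretches that hold one are shown because Per1 and Per3 are the genes on which most of the results turn. Per2 was not in the promoter table. The capitals mark the E-box CACGTG or the D-box TTATGTAA, and each stretch is written 5′ to 3′ on the strand of its gene.
Per1, chr11:69098753-69098818, plus strand: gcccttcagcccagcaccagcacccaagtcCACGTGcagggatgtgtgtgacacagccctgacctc
Per3, chr4:151044833-151044900, minus strand: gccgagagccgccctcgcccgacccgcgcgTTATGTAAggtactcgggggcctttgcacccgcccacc
Per3, chr4:151044786-151044853, minus strand: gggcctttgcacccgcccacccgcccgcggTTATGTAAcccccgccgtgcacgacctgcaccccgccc
Cry1, chr10:85185079-85185144, minus strand: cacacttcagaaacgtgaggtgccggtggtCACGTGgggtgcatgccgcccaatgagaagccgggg
The E-box of Per1 lay 166 to 161 bases before 1 of its 2 start sites, and the window of the other site held none of the letters searched. That of Cry1 lay 60 to 55 bases before its start. The D-boxes of Per3 lay 205 to 198 and 158 to 151 bases before its start. The windows of Cry2, Arntl, Clock, Nr1d1, Nr1d2 and Dbp held none of the letters searched, which were CACGTG, TTATGTAA, TTACGTAA, the ROR element TAGGTCA and the cAMP-response element TGACGTCA. Over all 32851 promoter windows of this length, 6.021% held the E-box, 0.931% either D-box, 2.234% the ROR element and 1.546% the cAMP-response element. A match describes the letters and does not show binding.

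Library totals ran from 9828293 to 32384166 counts, and at this depth every clock gene was counted in every library, the lowest count being 57 for Arntl in WT 2. Levels are given as CPM, the share of a library's counts that fell on a gene, multiplied up to a fixed library total, with TMM scaling over all 14 libraries. Clic4, the targeted gene, lay at 9.81 to 33.7 CPM in the 7 KO libraries and at 62.9 to 227 CPM in the 7 controls. The 10 RPE markers were all above 1 CPM in every library, although Best1 itself stayed between 1.21 and 5.87 CPM. Their summed level was 16659 to 23750 CPM in WT and 74644 to 85178 CPM in KO. Ctrl libraries had 48837 to 49344 CPM and CreCtrl libraries 51039 to 60670 CPM. Fibroblast markers (10 genes, 8 of them above 1 CPM in every library) summed to 1284 to 8097 CPM in controls and 124 to 817 CPM in KO. Immediate-early genes (13 genes, all above 1 CPM in every library) summed to 5296 to 16984 CPM in controls and 369 to 2426 CPM in KO. Neither sum overlapped between KO and controls. In bulk samples such as these, fewer cells of a type and less RNA per cell cannot be told apart.

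Among the clock genes, Per1 was lower in KO than in control libraries of every set, by 5.03-fold in the WT set, 1.66-fold in the Ctrl set and 2.60-fold in the CreCtrl set. Nr1d1 also lay lower in every KO library than in every control of its set. Per3 fell in the WT and CreCtrl sets, Dbp lay higher in KO without passing the test in any set, and Cry2 was nearly level throughout. Against CreCtrl, KO libraries stood apart from controls for all 10 clock genes, with 5 higher, Cry2 among them, and 5 lower. Against WT, 5 of the genes overlapped, and against Ctrl 7 did. Groups of 2 or 3 libraries can easily be apart by chance, and the share of all genes that were apart was not counted. Such separation is therefore given here and below as a description and not as a test. By edgeR's quasi-likelihood test, adjusted over all genes by the Benjamini-Hochberg method, 3 of the 10 clock genes fell in KO vs. WT (Per1, Per3 and Nr1d1), where 35.1% of the 15428 genes tested were called and 19% were called lower. The KO vs. Ctrl comparison called 0 of the 10, and 0% of its 15287 genes. At an unadjusted p under 0.05 it held 1 clock gene (Per1) and 1846 genes in all. DESeq2 also called 0 clock genes there, and its share of all genes was not counted. In KO vs. CreCtrl, 2 of the 10 fell (Per1 and Per3), where 15.8% of 15963 genes were called and 12.2% were called lower. With 1 KO effect fitted over the 14 libraries and each set keeping its own level, the same 3 genes fell as in the WT set, where 38.7% of 16181 genes were called and 18.6% were called lower. The clock genes were thus called about as often as genes in general. Their median log2 fold change was -0.26 in the WT set, against -0.08 over all genes tested, -0.11 against 0.01 in the Ctrl set and -0.12 against -0.02 in the CreCtrl set.

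**Figure D1:**
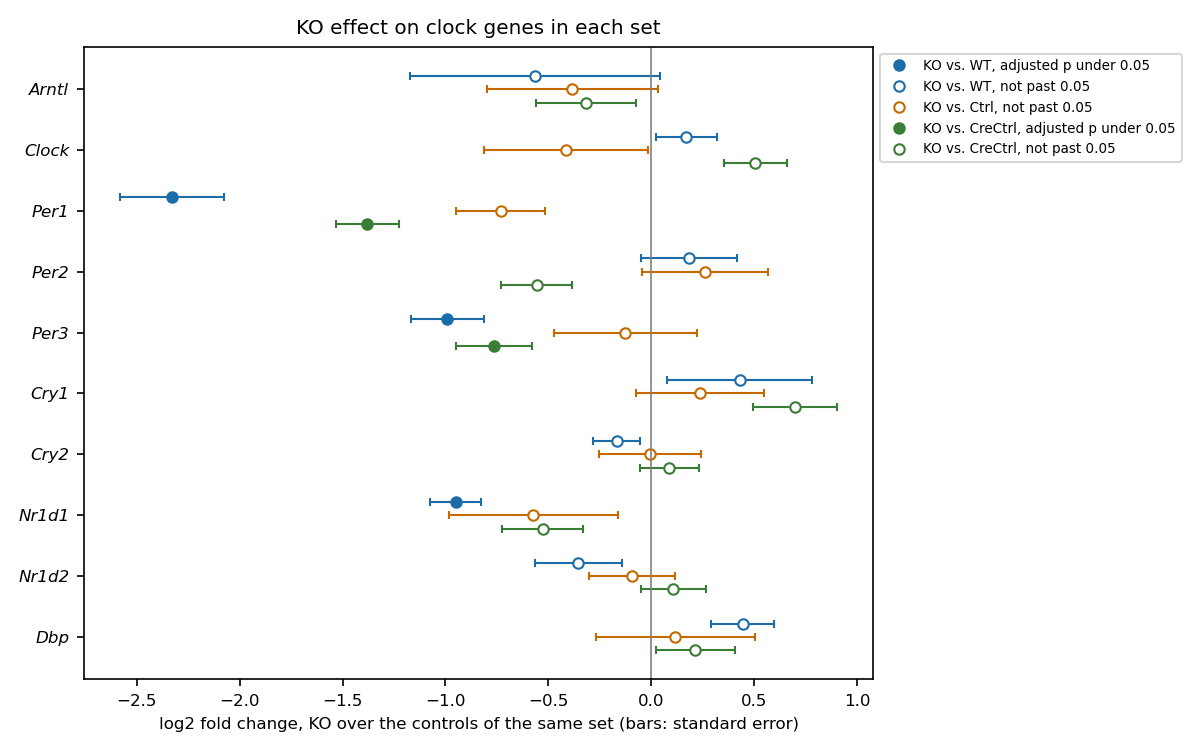
Log2 fold change of each clock gene in KO over the controls of its set (x axis), with the genes on the y axis, 1 colour per set and bars for the standard error; filled points passed an adjusted p of 0.05. Per1 is the lowest point of all 3 sets, at -2.33, -0.73 and -1.38, while Cry2 stays close to 0.

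Arntl (ENSMUSG00000055116, chr7:113207465-113314126, plus strand, 22 exon blocks) encodes the partner of CLOCK. It had 10.6, 4.85 and 29.9 CPM in WT 1 to 3 and 10.6, 8.17 and 15.5 CPM in the KO libraries of that set. The 2 Ctrl libraries had 13.9 and 29.5 CPM, and their KO libraries 15.3 and 17.6 CPM. CreCtrl libraries had 10.3 and 10.7 CPM, and their KO libraries 7.95 and 9.50 CPM. WT 3 and Ctrl 2 stood above the other 12 libraries, of which the highest was at 17.6 CPM, and KO and controls overlapped in the WT and Ctrl sets. The log2 fold change was -0.56 in the WT set (standard error 0.61, edgeR adjusted p = 0.53), -0.38 (standard error 0.41, edgeR adjusted p = 0.867) in the Ctrl set and -0.32 (standard error 0.24, edgeR adjusted p = 0.369) in the CreCtrl set. Without WT 3 the value of the WT set turned to 0.44 (edgeR adjusted p = 0.584), and without Ctrl 2 that of the Ctrl set turned to 0.24 (edgeR adjusted p = 0.951). Of the 10 clock genes Arntl varied most within groups, with an SD of 0.75 on the log2 scale against a median of 0.31 over 14553 genes.

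Clock (ENSMUSG00000029238, chr5:76209868-76304792, minus strand, 24 exon blocks) encodes the other activator. WT libraries had 49.4, 39.3 and 43.5 CPM and the KO libraries beside them 57.2, 50.5 and 57.6 CPM. The Ctrl libraries had 72.1 and 151 CPM and their KO libraries 97.7 and 67.7 CPM. In the CreCtrl set, controls had 61.3 and 53.9 CPM and KO libraries 79.4 and 90.2 CPM. All KO libraries thus lay above all controls in the WT and CreCtrl sets, while Ctrl 2 was the highest of all 14. The log2 fold change was 0.17 in the WT set (standard error 0.15, edgeR adjusted p = 0.426) and, in the other direction, -0.41 in the Ctrl set (standard error 0.40, edgeR adjusted p = 0.848). That of the CreCtrl set was 0.51 (standard error 0.15), with an edgeR adjusted p of 0.0609, which was 0.0279 to 0.372 over its 10 alternatives.

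Per1 (ENSMUSG00000020893, chr11:69095217-69109960, plus strand, 24 exon blocks) encodes a repressor of ARNTL and CLOCK. It had 312, 438 and 276 CPM in WT and 77.0, 53.9 and 94.9 CPM in the KO libraries of the WT set. It had 151 and 138 CPM in Ctrl and 91.5 and 81.1 CPM in their KO libraries. It had 182 CPM in both CreCtrl libraries and 69.0 and 76.2 CPM in their KO libraries. The 7 KO libraries therefore lay together, at 77.7 ± 13.8 CPM (SD, n = 7), and below all 7 controls, which were spread from 138 to 438 CPM. The fall was -2.33 on the log2 scale in the WT set (standard error 0.25, edgeR adjusted p = 0.00023) and -1.38 in the CreCtrl set (standard error 0.15, edgeR adjusted p = 0.00484). In the Ctrl set the log2 fold change was -0.73 (standard error 0.22), with an edgeR adjusted p of 0.223. Over the 3 sets together it was -1.55 (standard error 0.22, edgeR adjusted p = 0.000245). The difference in KO effect between the WT and Ctrl sets was itself past the threshold, at -1.47 (standard error 0.32, edgeR adjusted p = 0.0239), in a test that called 5.15% of 17662 genes. The other differences between sets called 0 clock genes, where 1.49% of genes were called for the WT set minus the CreCtrl set and 0% for the Ctrl set minus the CreCtrl set. The Per1 call was lost without Ctrl 2 or without either KO library of the Ctrl set.

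Per2 (ENSMUSG00000055866, chr1:91415982-91459324, minus strand, 24 exon blocks) encodes another repressor of the pair. WT libraries had 103, 80.6 and 53.9 CPM, and their KO libraries 76.7, 108 and 113 CPM. Ctrl libraries had 107 and 64.4 CPM, and their KO libraries 100.02 and 104 CPM. CreCtrl libraries had 138 and 168 CPM, above their KO libraries at 113 and 104 CPM. KO and controls overlapped in the WT and Ctrl sets, and WT 3 and Ctrl 2 were the lowest of the 14 libraries. The log2 fold change was 0.18 (standard error 0.23, edgeR adjusted p = 0.602) in the WT set, 0.26 (standard error 0.31, edgeR adjusted p = 0.885) in the Ctrl set and -0.56 (standard error 0.17, edgeR adjusted p = 0.0633) in the CreCtrl set. Scaling by library size alone turned the WT set value to -0.07. The adjusted p of the CreCtrl set went down to 0.0165 without CreCtrl 1, at a log2 fold change of -0.72.

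Per3 (ENSMUSG00000028957, chr4:151003652-151044665, minus strand, 23 exon blocks) encodes the third PER protein. It had 184, 163 and 110.1 CPM in WT against 81.9, 82.7 and 89.6 CPM in KO, and 134 and 150.4 CPM in CreCtrl against 99.8 and 74.5 CPM in KO. In the Ctrl set it had 116 and 61.6 CPM in controls and 85.2 and 76.6 CPM in KO. The groups were apart in the WT and CreCtrl sets, and in the Ctrl set both KO libraries fell between the controls. The transcripts fell by 0.99 on the log2 scale in the WT set (standard error 0.18, edgeR adjusted p = 0.00294) and by 0.76 in the CreCtrl set (standard error 0.18, edgeR adjusted p = 0.0375). The Ctrl set value was -0.13 (standard error 0.35, edgeR adjusted p = 0.96), and it was 0.43 without Ctrl 1. The call of the CreCtrl set was lost without CreCtrl 2 (edgeR adjusted p = 0.0934) and without KO 2 of that set (edgeR adjusted p = 0.25). Over the 3 sets the fall was 0.62 (standard error 0.17, edgeR adjusted p = 0.011), and the call was lost without the WT set (edgeR adjusted p = 0.269) or the CreCtrl set (edgeR adjusted p = 0.077).

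Cry1 (ENSMUSG00000020038, chr10:85131700-85185064, minus strand, 13 exon blocks) and Cry2 (ENSMUSG00000068742, chr2:92403646-92434043, minus strand, 13 exon blocks) encode the cryptochromes, the strongest repressors of the loop. Cry1 had 10.7, 22.7 and 11.2 CPM in WT and 16.1, 23.8 and 26.7 CPM in their KO libraries. It had 19.7 and 25.0 CPM in Ctrl and 31.2 and 21.1 CPM in their KO libraries. It had 23.9 and 17.6 CPM in CreCtrl and 31.6 and 38.3 CPM in their KO libraries. Only in the CreCtrl set were the groups apart, with KO above. Its log2 fold change was 0.70 there (standard error 0.20, edgeR adjusted p = 0.057) and 0.51 over the 3 sets (standard error 0.20, edgeR adjusted p = 0.0532), so neither passed, and the first ranged from 0.00558 to 0.318 in adjusted p over 10 alternatives. Cry2 was the steadiest clock gene, at 73.6 to 97.6 CPM in all 14 libraries with a within-group SD of 0.14 on the log2 scale. Its log2 fold changes of -0.17, -0.005 and 0.09 had edgeR adjusted p-values of 0.307, 0.997 and 0.679, and their sign changed with the scaling in the Ctrl and CreCtrl sets.

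Nr1d1 (ENSMUSG00000020889, chr11:98767932-98775333, minus strand, 8 exon blocks) encodes REV-ERBα, which represses Arntl. It had 364, 384 and 401 CPM in WT and 243, 213 and 205 CPM in the KO libraries of the WT set. It had 321 and 347 CPM in Ctrl and 136 and 308 CPM in their KO libraries. It had 187 and 206 CPM in CreCtrl and 165 and 119 CPM in their KO libraries. KO lay below control in every set, yet CreCtrl 1 was lower than every KO library of the WT set. The fall was 0.95 on the log2 scale in the WT set (standard error 0.12, edgeR adjusted p = 0.000566) and 0.66 over the 3 sets (standard error 0.16, edgeR adjusted p = 0.00515). The log2 fold change was -0.57 in the Ctrl set (standard error 0.41, edgeR adjusted p = 0.761) and -0.53 in the CreCtrl set (standard error 0.20, edgeR adjusted p = 0.0967). Without the WT set the value over the other sets was -0.56, which did not pass (edgeR adjusted p = 0.202). In the Ctrl set it ranged from -1.28 to -0.10 as single libraries were left out.

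Nr1d2 (ENSMUSG00000021775, chr14:18204054-18239127, minus strand, 8 exon blocks) encodes the related receptor REV-ERBβ. It had 201, 193 and 109 CPM in WT and 133, 159 and 144 CPM in their KO libraries. Ctrl libraries had 163 and 171 CPM, and their KO libraries 159.9 and 150.4 CPM. CreCtrl libraries had 199.8 and 205 CPM, and their KO libraries 222 and 230.4 CPM. KO thus overlapped control in the WT set, lay below it in the Ctrl set and above it in the CreCtrl set. The log2 fold changes were -0.35, -0.09 and 0.11 in that order of sets, with edgeR adjusted p-values of 0.238, 0.953 and 0.647, and the CreCtrl value turned to -0.12 when libraries were scaled by their totals alone. Without WT 3 the value of the WT set was -0.58 and passed (edgeR adjusted p = 0.013).

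Dbp (ENSMUSG00000059824, chr7:45705088-45710203, plus strand, 4 exon blocks) encodes a D-box activator whose transcript has one of the widest daily swings known. It had 492.8, 653 and 467.5 CPM in WT and 774, 881 and 783 CPM in the KO libraries of the WT set. It had 768 and 448 CPM in Ctrl and 507 and 800.5 CPM in their KO libraries. It had 713 and 655 CPM in CreCtrl and 912 and 738 CPM in their KO libraries. All KO libraries were above all controls in the WT and CreCtrl sets, and in the Ctrl set the libraries of both groups were scattered. The log2 fold change was 0.44 in the WT set (standard error 0.15), which missed the threshold narrowly (edgeR adjusted p = 0.0506). Of 12 alternatives 5 passed, among them DESeq2 (adjusted p = 0.0108) and the fits without WT 2 (edgeR adjusted p = 0.0138) and without KO 3 (edgeR adjusted p = 0.0481). The others did not pass, and with libraries scaled by their totals alone the log2 fold change was 0.20 (edgeR adjusted p = 0.351). It was 0.12 in the Ctrl set (standard error 0.39, edgeR adjusted p = 0.97) and 0.21 in the CreCtrl set (standard error 0.19, edgeR adjusted p = 0.439). The Ctrl set value turned to -0.02 when libraries were scaled by their totals alone.

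**Figure D2:**
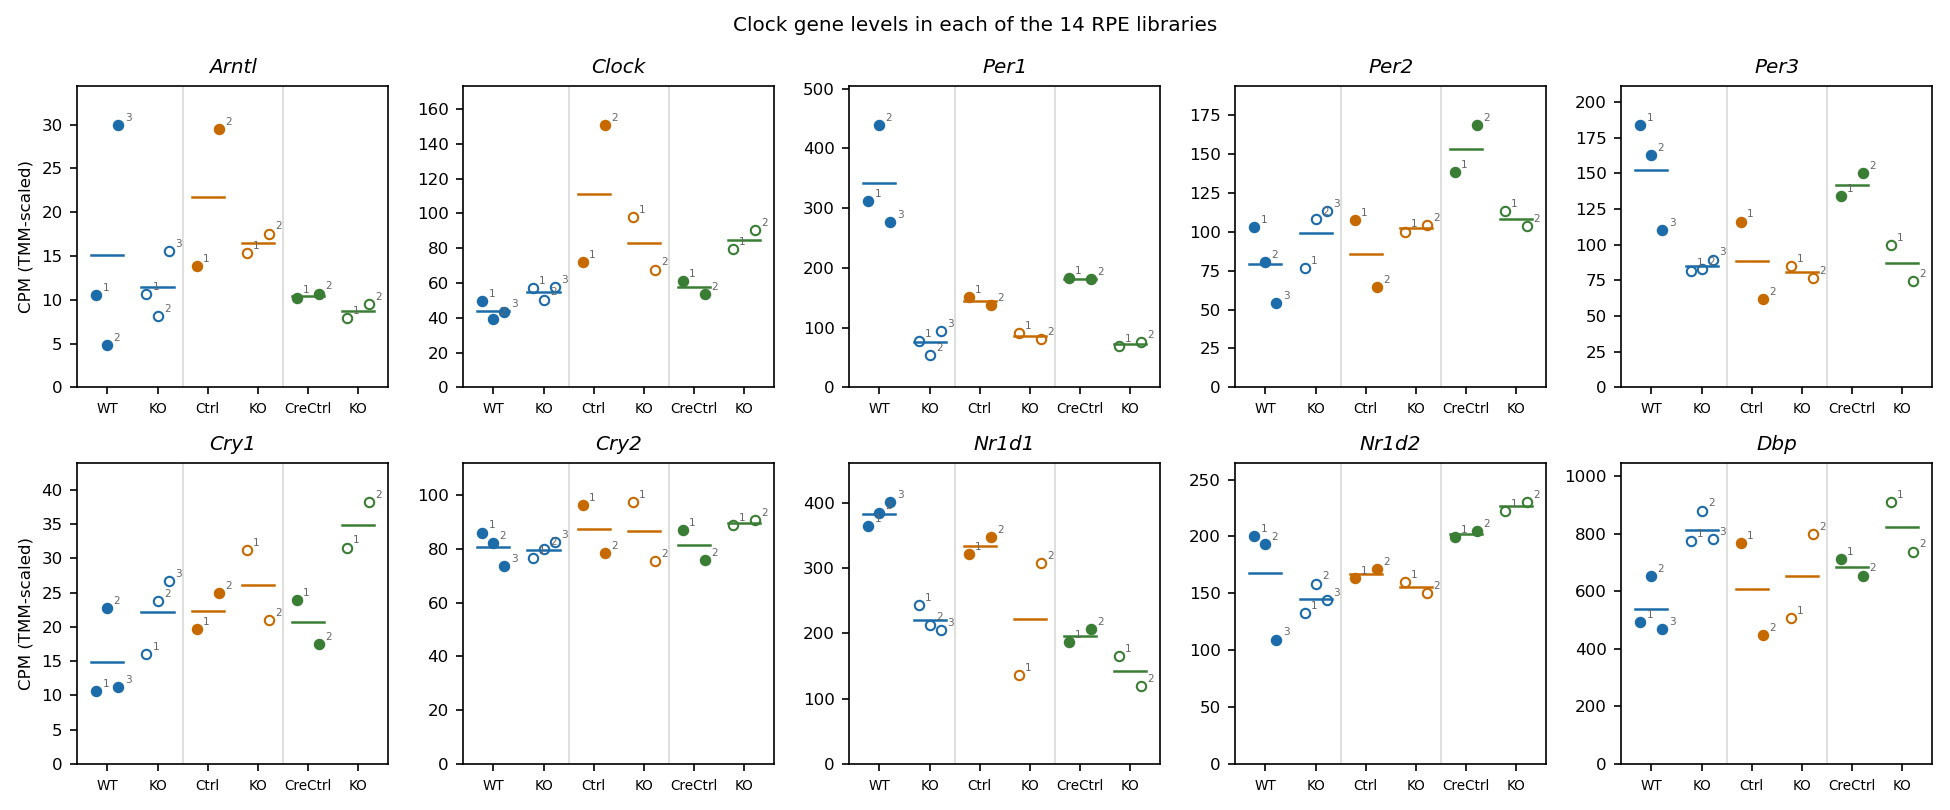
CPM of the 10 clock genes (y axes, each from 0) in the 14 libraries, arranged by set along the x axis; filled points are controls, open points KO, small digits replicate numbers and lines group means. The open points of Per1 lie between 53.9 and 94.9 CPM in every set, below all filled points, and WT 3 and Ctrl 2 are the high points of Arntl.

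Per kilobase of exon, which allows levels of different genes to be compared, Dbp was the most abundant clock gene, with a mean of 229 CPM per kb over the 14 libraries. Nr1d1 followed at 83.6 CPM per kb. The next places differed between groups, since Per1 had a mean of 42.6 CPM per kb in the 7 controls, above Nr1d2 at 32.8 CPM per kb. In the 7 KO libraries Per1 had 13.8 CPM per kb, below Nr1d2 at 31.7 CPM per kb and Per2 at 17.5 CPM per kb. Over all 14 libraries Arntl was the least abundant at 1.85 CPM per kb, below Clock at 5.05 CPM per kb. The exons of Dbp share 539 bases (18.0%) with those of Sphk2 on the other strand, and those of Nr1d1 share 263 bases (8.55%) with Thra. The strand setting of the counting is not given in the sources used here. Thra passed in none of the KO comparisons. Sphk2 rose over the 3 sets by 0.42 on the log2 scale (standard error 0.12, edgeR adjusted p = 0.0129) and passed in no single set. The part of reads from these overlapping genes in the values of Dbp and Nr1d1 was not tested.

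Ratios of clock genes within 1 library do not depend on the scaling between libraries, and they are given as a description of clock phase with no test. The log2 ratio of Arntl to Dbp, genes that peak at opposite times, was -5.54, -7.06 and -3.96 in WT 1 to 3 and -6.18, -6.75 and -5.65 in their KO libraries. It was -5.79 and -3.93 in Ctrl and -5.05 and -5.51 in their KO libraries. It was -6.12 and -5.93 in CreCtrl and -6.84 and -6.28 in their KO libraries. The WT libraries alone thus spanned the values of all 14 but Ctrl 2, which was the highest, and KO was apart from control only in the CreCtrl set, where it was lower.

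The ratio of Nr1d1 to Dbp, genes that peak within hours of each other, separated KO from control in every set. Its log2 value was -0.44, -0.76 and -0.22 in WT and -1.67, -2.05 and -1.93 in the KO libraries of the WT set. It was -1.26 and -0.37 in Ctrl and -1.90 and -1.38 in their KO libraries. In CreCtrl it was -1.93 and -1.67, and in their KO libraries -2.47 and -2.63. KO was lower than control by 1.41, 0.82 and 0.75 in the mean log2 ratio of the WT, Ctrl and CreCtrl sets, as Nr1d1 was lower and Dbp higher in KO. The ratio of Arntl to Nr1d1, also genes of opposite phase, had a higher mean in KO, by 0.74, 0.40 and 0.22 in the same order of sets, with overlap in each. That is the opposite direction from Arntl to Dbp, whose mean was lower in KO by 0.67, 0.42 and 0.53. The ratio of Arntl to Per1 was higher in KO in the WT and CreCtrl sets, by 2.13 and 1.06, and overlapped in the Ctrl set. Arntl to Per3 was higher in KO only in the CreCtrl set and overlapped in the others, and Arntl to Per2 overlapped in all 3 sets. Clock to Cry1 was lower in KO in the Ctrl and CreCtrl sets, by 0.57 and 0.20, and overlapped in the WT set.

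**Figure D3:**
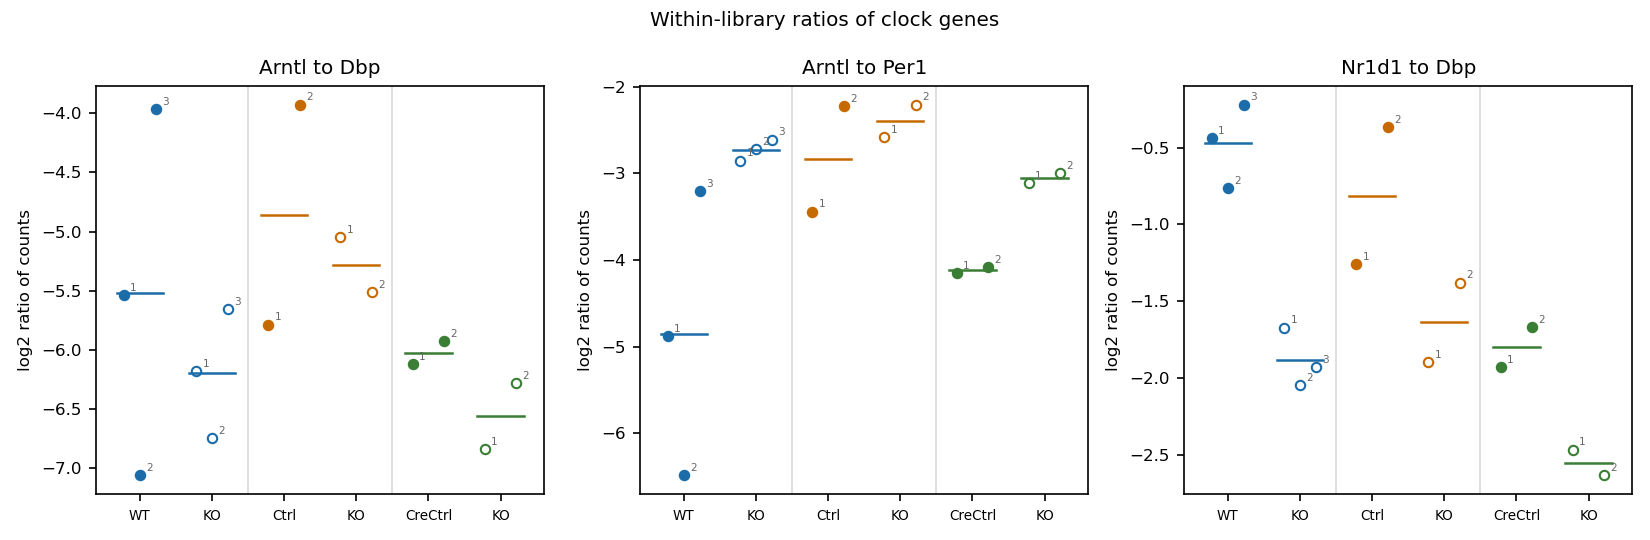
Log2 ratio of counts within each library (y axes) for Arntl to Dbp, Arntl to Per1 and Nr1d1 to Dbp, by set along the x axis; filled points are controls, open points KO, small digits replicate numbers and lines group means. Nr1d1 to Dbp is lower in KO than in control of every set, whereas Arntl to Dbp spreads from -7.06 to -3.96 within WT.

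WT 3 and Ctrl 2 stood apart together in a minority of the clock genes, a pattern noticed after their values were seen. They were the 2 highest libraries for Arntl (29.9 and 29.5 CPM) and for Npas2 (14.6 and 11.1 CPM, against at most 4.78 CPM in the other 12). They were the 2 lowest for Per2 (53.9 and 64.4 CPM, against at least 76.7 CPM) and for Dbp (467.5 and 448 CPM, against at least 492.8 CPM). Of the 10 clock genes they were thus both highest for 1 and both lowest for 2, where over 14553 genes they were both highest for 1.23% and both lowest for 1.17%. Since the pair was picked for such values, these shares do not test the pattern. Among the 18 other clock genes they were both highest for 2, Npas2 included, and both lowest for 2, which is 11.1% each. In some of the 10 they were far from each other, since WT 3 ranked 13 of 14 and Ctrl 2 ranked 1 for Clock, and they ranked 6 and 14 for Per3. For Nr1d1 neither stood low, at ranks 1 and 4. Left out together, a choice made after the data were seen, they moved the value over the 3 sets to 0.13 for Arntl (edgeR adjusted p = 0.727) and to -0.21 for Per2 (edgeR adjusted p = 0.274). Per1 (-1.72), Per3 (-0.87) and Nr1d1 (-0.67) then still fell, with edgeR adjusted p-values of 0.000391, 0.000409 and 0.013.

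The KO mice of the 3 sets share a genotype, so their clock genes were compared between sets, with all 14 libraries giving the spread. By edgeR's test with 2 degrees of freedom, 0 of the 10 clock genes differed, where 3.02% of 17662 genes were called, and 1 clock gene (Nr1d2) had an unadjusted p under 0.05 (edgeR adjusted p = 0.224). Nr1d2 was higher in KO of the CreCtrl set than in KO of the WT set by 0.61 on the log2 scale (standard error 0.20, edgeR adjusted p = 0.242), in a contrast that called 0.226% of genes. With the 7 KO libraries fitted alone, a choice made after the data were seen, the same difference was 0.64 (standard error 0.12) and passed (edgeR adjusted p = 0.0355). Nr1d1 lay the other way between the same groups, by -0.66 (standard error 0.27, edgeR adjusted p = 0.331). In the CreCtrl set minus Ctrl set contrast, which called 1.36% of genes, 0 clock genes were called. Clock was higher in KO of the Ctrl set than in KO of the WT set by 0.58 (standard error 0.25, edgeR adjusted p = 0.243), in a contrast that called 3.7% of genes, and by 0.59 in KO of the CreCtrl set (standard error 0.25, edgeR adjusted p = 0.349). For Per1 and Per3 the edgeR adjusted p-values of the test over the 3 groups were 0.831 and 0.99.

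Among 18 other genes of the clock, 6 were called in KO vs. WT, of which 1 rose and 5 fell, where 35.1% of all genes were called and 19% were called lower. In KO vs. Ctrl 0 were called, and 2 had an unadjusted p under 0.05. In KO vs. CreCtrl 2 were called, of which 1 rose and 1 fell, where 15.8% of all genes were called and 12.2% were called lower. Over the 3 sets 6 were called, of which 1 rose (Rorb) and 5 fell (Npas2, Nfil3, Bhlhe40, Csnk1e, Wee1), where 38.7% of all genes were called and 18.6% were called lower. Their median log2 fold change was -0.30 for KO vs. WT, -0.18 for KO vs. Ctrl and -0.11 for KO vs. CreCtrl.

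Rorb encodes RORβ, which binds the ROR element as an activator and is known in the retina. It had 24.6, 17.0 and 12.5 CPM in WT and 51.3, 60.7 and 76.8 CPM in their KO libraries. Its level was 70.4 and 77.5 CPM in Ctrl and 102 and 104 CPM in their KO libraries, and 64.4 and 52.4 CPM in CreCtrl and 95.4 and 86.0 CPM in their KO libraries. KO was above control in every set, and WT stood low among the controls. The rise was 1.66 on the log2 scale in the WT set (standard error 0.27, edgeR adjusted p = 0.00163), 0.58 in the CreCtrl set (standard error 0.15, edgeR adjusted p = 0.0472) and 1.06 over the 3 sets (standard error 0.22, edgeR adjusted p = 0.00225). The WT and Ctrl sets differed in this effect by 1.30 (standard error 0.34, edgeR adjusted p = 0.0444).

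Csnk1e encodes casein kinase 1ε, which phosphorylates PER proteins. It had 70.3, 94.2 and 73.7 CPM in WT and 30.4, 32.3 and 28.9 CPM in their KO libraries, a fall of 1.53 on the log2 scale (standard error 0.15, edgeR adjusted p = 0.000157). It also fell by 0.55 in the CreCtrl set (standard error 0.15, edgeR adjusted p = 0.0482), and it lay below control in the Ctrl set. Bhlhe40 (DEC1), a repressor that competes for E-boxes, fell by 1.07 in the WT set (standard error 0.15, edgeR adjusted p = 0.000979), and Nfil3 (E4BP4), which opposes DBP at D-boxes, fell by 1.32 there (standard error 0.37, edgeR adjusted p = 0.0231). KO libraries of all 3 sets were below their controls for both. Wee1, a mitotic kinase gene under clock control, fell by 1.92 in the WT set (standard error 0.45, edgeR adjusted p = 0.0102), and Rora fell by 0.66 there (standard error 0.18, edgeR adjusted p = 0.0209). Neither passed in the other sets, where Wee1 was at -0.57 (Ctrl set) and -0.21 (CreCtrl set) and Rora at -0.20 and -0.14. Rora did not pass over the 3 sets either (-0.32, edgeR adjusted p = 0.0867). Npas2, which can stand in for CLOCK, fell by 2.40 over the 3 sets (standard error 0.65, edgeR adjusted p = 0.00974), from levels that were 0.912 to 14.6 CPM in controls and 0.196 to 4.78 CPM in KO. Bhlhe41 (DEC2) passed in no comparison of KO with controls but was higher in KO of the Ctrl set than in KO of the WT set by 0.67 (standard error 0.15, edgeR adjusted p = 0.0277).

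**Figure D4:**
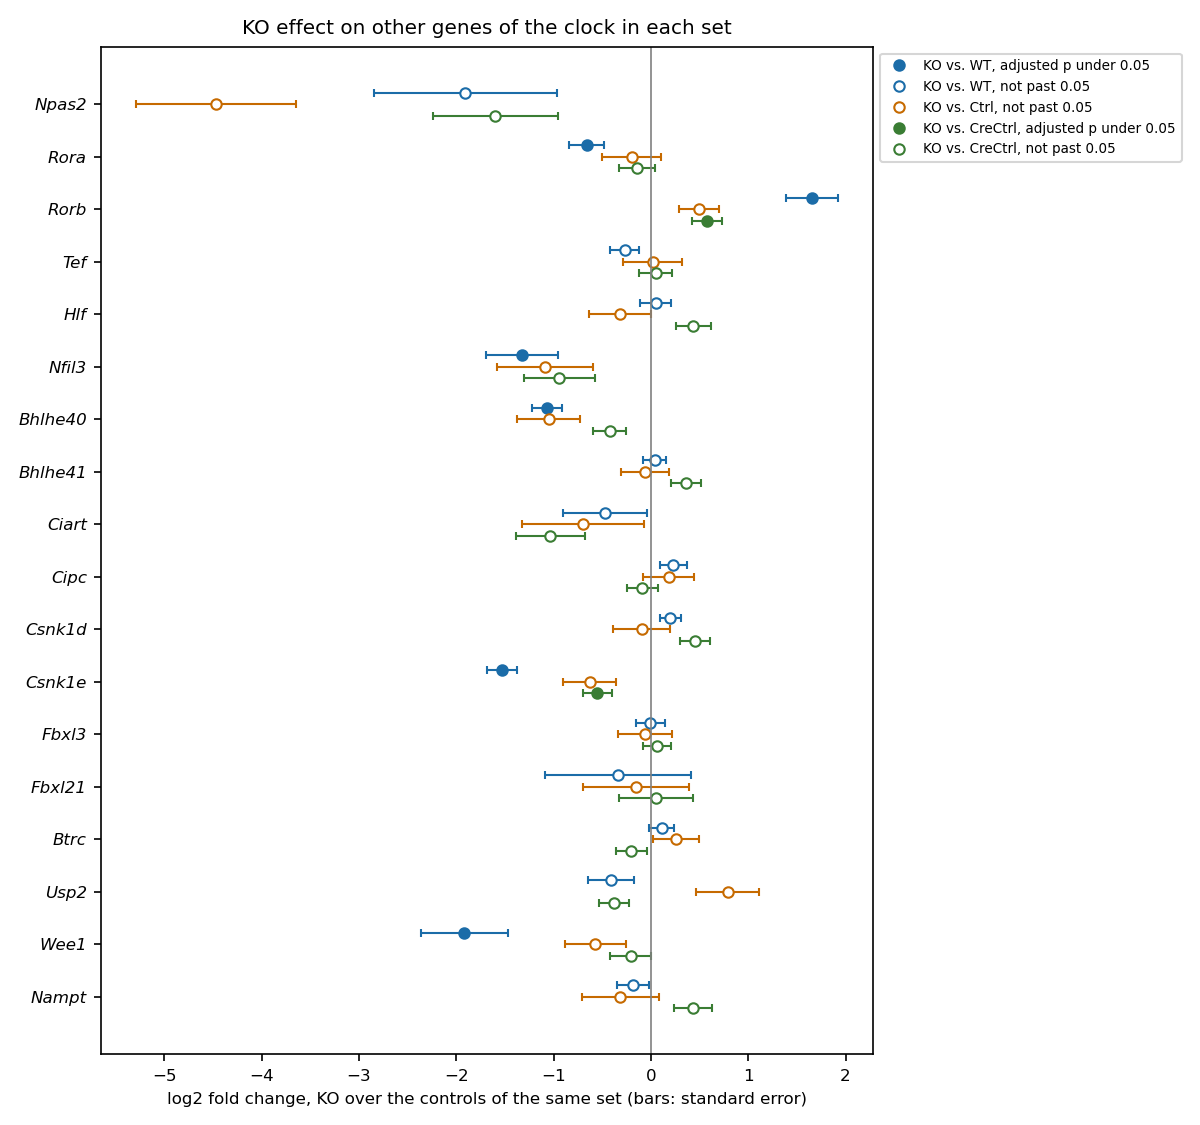
Log2 fold change of 18 other clock genes in KO over the controls of their set (x axis), with the genes on the y axis, 1 colour per set and bars for the standard error; filled points passed an adjusted p of 0.05. Rorb is above 0 and Csnk1e below 0 in all 3 sets, and both are filled in the WT and CreCtrl sets.

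Per1 and the immediate-early genes were both highest in WT and lowest in KO. The 13 immediate-early genes, such as Fos, Jun and Egr1, all fell in the WT and CreCtrl sets and over the 3 sets, with median log2 fold changes of -3.55, -3.21 and -3.16, and in the Ctrl set 0 were called at a median of -2.81. WT libraries had both the highest sums (14167 to 16984 CPM) and the highest Per1. The CreCtrl libraries, at 5296 and 5498 CPM, and the Ctrl libraries, at 7370 and 11283 CPM, were between WT and KO in both measures, but in the opposite order from Per1, which was higher in CreCtrl. Nr1d1 also lay highest in WT and was lower in the CreCtrl than in the Ctrl libraries, the same order of control groups as the immediate-early sums. Per2, by contrast, was highest in CreCtrl. The part of these transcripts in the differences of Per1, Per3 and Nr1d1 was not tested.

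**Figure D5:**
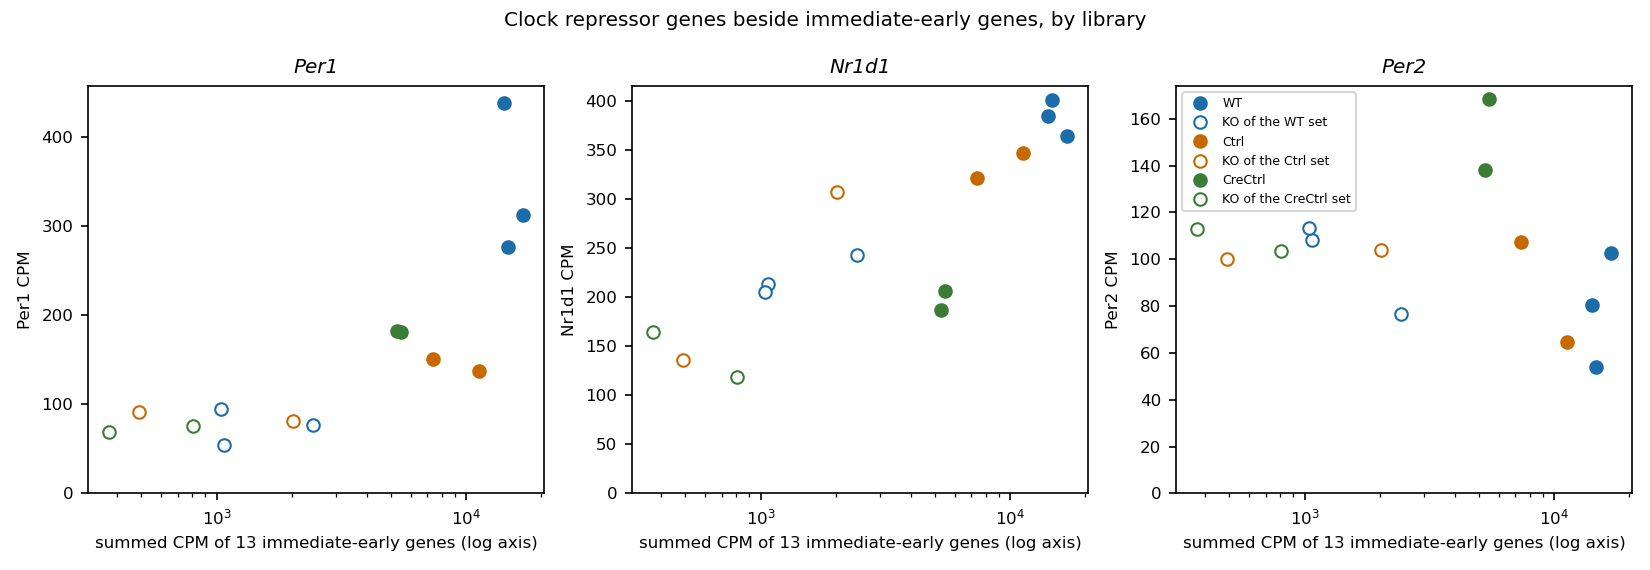
CPM of Per1, Nr1d1 and Per2 (y axes, from 0) against the summed CPM of 13 immediate-early genes (log x axis) in the 14 libraries; filled points are controls, open points KO, with 1 colour per set. The 7 KO libraries lie left of all controls, at 369 to 2426 CPM, and low in Per1, whereas Per2 shows no such order.

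The 10 fibroblast markers moved with KO too, with median log2 fold changes of -4.02, -2.96 and -3.56 in the WT, Ctrl and CreCtrl sets. When the mean log2 level of these markers entered the model over the 3 sets, 0 clock genes were called. The values of Per1, Per3 and Nr1d1 were -0.68, -0.37 and 0.05, each with an edgeR adjusted p of 1. The share of all genes called in that fit was not counted, so the 0 is no result about the clock genes. Since the summed level of these markers did not overlap between KO and controls, KO and the markers cannot be told apart in that fit. Of the 10 RPE markers 9 rose in KO vs. WT, at a median log2 fold change of 1.585, and 1 rose in KO vs. CreCtrl, at 0.50. In KO vs. Ctrl 0 RPE markers were called, at a median of 0.58, and over the 3 sets 9 rose and 1 fell. Other cell types moved with KO within some sets. Endothelial markers (8 genes) had sums that were apart in every set, at 109 to 462 CPM in controls and 29.3 to 132 CPM in KO, and 6 of the 8 fell in KO vs. WT and 6 in KO vs. CreCtrl. Of 10 myeloid markers 9 fell and 1 rose in KO vs. WT, where the sums were 1628 to 2742 CPM in WT and 816 to 987 CPM in KO, with a median log2 fold change of -3.63. Of the same 10, 8 fell in KO vs. CreCtrl, with a median of -2.70. Of 10 rod markers all fell in KO vs. CreCtrl, from sums of 963 and 4381 CPM to 231 and 356 CPM. In the WT set edgeR called 0 rod markers, and 0 had an unadjusted p under 0.05. In the Ctrl set edgeR called 0 genes of these 3 lists, where 7 endothelial, 0 myeloid and 0 rod markers had an unadjusted p under 0.05. The myeloid sums there were 968 and 1435 CPM in Ctrl against 879 and 2631 CPM in KO, and the rod sums 345 and 1829 CPM against 1671 and 1751 CPM. Pde6b, Nr2e3, Cx3cr1, Aif1 and Itgam were at 0 in 1 library each and Cnga1 in 2. The part of these cells in the clock gene differences was not tested.

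Of 14553 genes with a mean of at least 1 CPM, those whose centred log2 CPM over the 14 libraries lay nearest to Dbp were Ramp2, Gpr137, Hpf1, Taf6l and Nkiras1, at root-mean-square differences of 0.17 to 0.20, where Dbp itself varied by 0.33. Those nearest to Arntl were Zfp524, Plk4, Dclk1, Lsm2 and Trnp1, at 0.43 to 0.47, where Arntl varied by 0.68. No other clock gene was among the 5 nearest to either.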

How the data were processed

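Poly(A) RNA of RPE cells from 14 mice was sequenced with paired-end reads in stranded libraries. The deposited table holds the counts of reads per Ensembl gene, which the authors made after alignment to GRCm38 with STAR, without normalization. The submitters' processing notes list bcl2fastq 2.19, STAR 2.5.2, Cufflinks 2.1.1 and HTSeq 0.11.2, with no role stated. The annotation release and the strand setting of the counting are not given in the sources used here. The set of each KO library was inferred from the style of its title, of which there were 3, and the prefix of its description. No label states the set in words. Of the 42687 genes, 42329 were found in GENCODE M21, which gave names, positions and exon lengths.

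The counts were tested with edgeR 4.0.16 (quasi-likelihood test, TMM normalization, genes kept by filterByExpr, Benjamini-Hochberg adjustment over all genes tested, called at an adjusted p under 0.05) in R 4.3.3, with DESeq2 1.42.0 as an alternative. Counts simulated from these libraries with 200 genes changed by 2 on the log2 scale gave 200, 195, 191 and 200 recovered by edgeR in the designs of the WT set, the Ctrl set, the CreCtrl set and the 3 sets together, with 9, 14, 13 and 13 false calls among 15540, 15341, 16037 and 15974 genes. The simulation gave every gene and library the same spread between replicates, so it does not give the power reached in the real sets. In the real Ctrl set Clic4 itself was not called, at -1.61 on the log2 scale (standard error 0.58, edgeR adjusted p = 0.333). Ratios used counts plus 0.5. Library totals of 9828293 to 32384166 set the counting error, and 3 counts correspond to 0.0926 to 0.305 CPM. The alternatives were RLE normalization, library size alone, no filter, DESeq2, 1 fit of all 6 groups, the replicate number as a block, each library or set left out, and the fibroblast markers as a covariate. The clock genes, the other lists and the tests were chosen with earlier results of these data known. Every clock gene is named. Of the other 18, those that passed in a comparison are named (another gene of that list is not reported here), with the 5 genes nearest to Dbp and to Arntl. The promoter search was planned for Dbp, Nr1d1, Per1, Per2 and Arntl and extended to the other clock genes afterwards.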

Additional observations from a re-analysis of the deposited data

Results flagged for a closer look

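Among the 7 KO libraries, Per2 in KO 1 of the WT set stood apart at 76.7 CPM, where the other 6 had 100.02 to 113 CPM. Dbp in KO 1 of the Ctrl set stood apart at 507 CPM, where the other 6 had 738 to 912 CPM. In each case the gap to the nearest library was more of the whole range than Dixon's critical value of 0.568 for 7 samples, at 0.638 and 0.572, and chance alone marks about 1 in 20 groups.

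The KO effect on Per1 differed between the WT and Ctrl sets by -1.47 on the log2 scale (standard error 0.32, edgeR adjusted p = 0.0239). Control genotype and set cannot be told apart in this difference.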

How the results depend on the processing

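The number of clock genes called in KO vs. CreCtrl was 2, and it was 5 with no filter, 5 by DESeq2 (Cry1 and Clock higher, Per2 lower) and 1 in the fit of all 6 groups. Over the 3 sets it was 3, and it was 1 without the WT set, 5 without the Ctrl set and 0 with the fibroblast markers as a covariate, whose summed level did not overlap between KO and controls. Among KO libraries between sets it was 0, and it was 1 with no filter and 1 with the 7 KO libraries alone, both in the test over the 3 groups and in the CreCtrl set minus WT set contrast (Nr1d2). With single libraries left out, the number ranged from 1 to 5 in KO vs. CreCtrl, 3 to 4 in KO vs. WT, 3 to 5 over the 3 sets, 0 to 3 for the difference in KO effect between the WT and Ctrl sets, 0 to 1 for that between the Ctrl and CreCtrl sets, 0 to 1 for KO libraries between sets and 0 to 1 for the CreCtrl set minus the Ctrl set among them. KO vs. CreCtrl gave 5 without CreCtrl 1 and 1 without CreCtrl 2 or KO 2, the value over the 3 sets was 5 without Ctrl 2, and the difference between the WT and Ctrl sets was 3 without Ctrl 1 and 0 without Ctrl 2, KO 1 or KO 2 of the Ctrl set. In KO vs. Ctrl, 0 were called under every alternative. The share of all genes called was not counted for these alternatives, so the counts describe the settings and are no result about the clock genes. The causes of these changes were not tested.

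Log2 fold changes that turned their sign belonged to genes that had not passed, except Nr1d1. Scaling by library size alone put the median over all genes at -0.32, -0.11, -0.24 and -0.27 in the WT, Ctrl and CreCtrl sets and over the 3 sets. It gave -0.065 for Per2 and -0.072 for Clock in the WT set, -0.13 for Cry2 and -0.12 for Nr1d2 in the CreCtrl set, -0.022 for Dbp in the Ctrl set, and -0.22 for Per2, -0.25 for Cry2 and -0.093 for Clock over the 3 sets. RLE normalization gave 0.0018 for Cry2 in the Ctrl set, and -0.013 for Per2 and -0.054 for Cry2 over the 3 sets, and DESeq2 gave -0.013 and -0.053 for the same genes. The value over the 3 sets was -0.16 for Per2 without the WT set, -0.067 for Per2 and -0.016 for Cry2 without the Ctrl set, and -0.024 for Cry2 without the CreCtrl set. With the fibroblast markers as a covariate it was -0.44 for Per2, -0.26 for Cry1, -0.14 for Cry2, -0.44 for Clock and 0.052 for Nr1d1. Without WT 3 and Ctrl 2 together it was -0.21 for Per2, -0.086 for Cry2 and 0.13 for Arntl. With single libraries left out, the WT set ranged from -0.019 to 0.41 for Per2 and from -0.99 to 0.44 for Arntl. The Ctrl set ranged from -0.071 to 0.70 for Per2, -0.52 to 0.43 for Per3, -0.068 to 0.49 for Cry1, -0.20 to 0.17 for Cry2, -0.81 to 0.24 for Arntl, -0.83 to 0.20 for Clock and -0.26 to 0.58 for Dbp. The CreCtrl set ranged from -0.013 to 0.16 for Cry2, and the 3 sets together from -0.058 to 0.15 for Per2 and -0.036 to 0.053 for Cry2.

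The replicate numbers did not pair the libraries, since deviations of same-numbered KO and control libraries correlated at -0.016, 0.045 and 0.13 in the WT set, at 0.13 in the CreCtrl set and at 0.0007 in the Ctrl set. With the replicate block, 4, 0, 3 and 3 clock genes were called in the WT, Ctrl and CreCtrl sets and over the 3 sets, Dbp (0.46, edgeR adjusted p = 0.0412) and Cry1 (0.71, edgeR adjusted p = 0.017) being added. The share of all genes called with the block was not counted. The precision differed between sets, since the standard errors of the clock genes ran from 0.21 to 0.41 on the log2 scale in KO vs. Ctrl and from 0.14 to 0.24 in KO vs. CreCtrl, each with 2 libraries a group.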
